A study of Homo sapiens with 6 samples.

Results

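The endocrine lineage regulators NEUROG3, PAX4, RFX6, MYT1 and PROX1, with the hormone gene GCG, were followed in AsPC-1 cells, an established human pancreatic cancer line, by RNA sequencing. The rows were taken by gene symbol from the authors' deposited table, and 6 of its 753 genes are described. In one group of 3 libraries the cells had received an shTMPRSS4 lentivirus to knock down TMPRSS4, which encodes a serine protease of the cell surface (shTMPRSS4). The other group of 3 libraries came from cells given a control lentivirus (control). All 6 libraries came from the same cell line, and the labels do not say whether the replicates were separate cultures or clones. The deposited table holds only genes that passed the authors' threshold for a difference between these groups. The lowest absolute log2 fold change in the table was 1 and the highest false discovery rate (FDR) 0.0490. The genes were therefore chosen from the same comparison that is described here, so no test of that comparison is given. TMPRSS4 itself was not among the genes of the deposited table, so its level could not be checked. The knockdown is named from the labels alone.

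The pancreas and the gut epithelium make hormone-producing cells from progenitors that briefly express NEUROG3, a basic helix-loop-helix transcription factor. NEUROG3 switches on further regulators, among them PAX4, RFX6 and MYT1, which in mouse act in the formation of islet cells. PROX1 is a homeodomain protein of the early pancreas, liver and lymphatic endothelium. GCG encodes proglucagon, which is cut to glucagon in islet alpha cells and to glucagon-like peptides in intestinal L cells. Notch signalling holds neighbouring progenitors back by repressing NEUROG3 through HES proteins. Ductal tumour cells such as AsPC-1 belong to the exocrine lineage, and of 10 duct markers none was among the genes analysed, so the cell type was not checked here.

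The 3 promoters below are shown for the lineage's first factor, for PAX4, which had 0 counts in every control library, and for the hormone gene. Each run is the 250 bases before a RefSeq start (GRCh38.p14), read 5′ to 3′ on the gene's strand, and capitals mark every match to the motifs named after them.
NEUROG3, chr10:69573423-69573672, minus strand: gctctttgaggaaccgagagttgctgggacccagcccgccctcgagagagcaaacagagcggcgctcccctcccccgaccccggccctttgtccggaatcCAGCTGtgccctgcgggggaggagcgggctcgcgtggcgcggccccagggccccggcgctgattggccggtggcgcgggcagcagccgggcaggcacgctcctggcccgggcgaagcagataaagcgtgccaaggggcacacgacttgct
PAX4, chr7:127618143-127618392, minus strand: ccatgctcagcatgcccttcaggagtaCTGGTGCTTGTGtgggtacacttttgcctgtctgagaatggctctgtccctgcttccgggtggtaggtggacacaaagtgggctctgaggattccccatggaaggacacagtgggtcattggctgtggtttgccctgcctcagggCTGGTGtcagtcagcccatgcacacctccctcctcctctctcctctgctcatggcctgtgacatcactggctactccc
GCG, chr2:162152248-162152497, minus strand: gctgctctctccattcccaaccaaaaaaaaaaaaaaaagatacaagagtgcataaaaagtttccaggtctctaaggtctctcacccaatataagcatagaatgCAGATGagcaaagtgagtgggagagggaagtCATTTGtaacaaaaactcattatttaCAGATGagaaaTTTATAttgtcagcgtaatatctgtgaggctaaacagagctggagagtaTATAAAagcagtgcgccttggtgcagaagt
The motifs were searched on both strands. They were CANNTG, the E-box of helix-loop-helix factors, CAGATG, an E-box form of neurogenin-type factors that is also counted under the first motif, CACNAG, the N-box of HES proteins, and TATAAA, the TATA box. RefSeq entries matched 4 of the 6 genes, namely NEUROG3, PAX4 with 2 start sites, MYT1 and GCG. The GCG promoter held 3 matches to CANNTG, of which 2 were CAGATG. They lay 147 to 142 and 90 to 85 bases before the start. At least 2 CAGATG matches occurred in 1.18% of all 34943 promoters of this length, and at least 1 in 12.2%. The GCG promoter also held TATAAA 30 to 25 bases before the start and its reverse complement, TTTATA, 79 to 74 bases before. Of all promoters 10.8% held this motif at least once and 2.06% at least 2 times. The NEUROG3 promoter held 1 E-box, CAGCTG, 150 to 145 bases before the start, and 61.8% of all promoters held a CANNTG. The PAX4 promoter printed here held 3 matches to CACNAG, a motif present in 32.1% of all promoters and at least 2 times in 6.33%. The promoter at the downstream PAX4 start and that of MYT1 held none of the motifs. By base composition the NEUROG3 promoter had 72.0% G and C, the PAX4 promoters 58.0% and 42.4%, MYT1 45.6% and GCG 38.4%, against a median of 58.0% over all promoters. These matches describe letters in one window and are not evidence of binding.

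The depth recovered from the table was 46800000 to 53300000 reads in shTMPRSS4 libraries and 30200000 to 57200000 reads in control libraries. Control replicate 3 was the shallowest and the single library whose label carries the code L3, where all others carry L4. No pair of libraries held identical counts. Levels are given as FPKM (fragments scaled by gene length and by sequencing depth), which the authors computed. Fold changes compare counts scaled by recovered depth, and with scales set over the listed genes alone the median of all listed genes fell by 1.16 (DESeq2 size factors) or dropped by 1.18 (TMM) on the log2 scale. All directions are therefore relative to recovered depth.

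All 6 genes were higher in the shTMPRSS4 libraries, with no overlap between the groups. The same direction past the authors' threshold held for 3.67% of the 15117 genes that the authors adjusted over, either direction held for 4.98%, and groups were higher without overlap in 72.9% of the 753 listed genes. Because membership in the table required a difference, nothing is read from the count of 6. The genes fell into 2 kinds by their control level. NEUROG3, MYT1 and PROX1 had reads in every control library, while PAX4, RFX6 and GCG had 0 counts in all 3 control libraries. Bulk libraries cannot tell a change in the number of cells expressing a gene from a change in its RNA per cell.

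**Figure D1:**
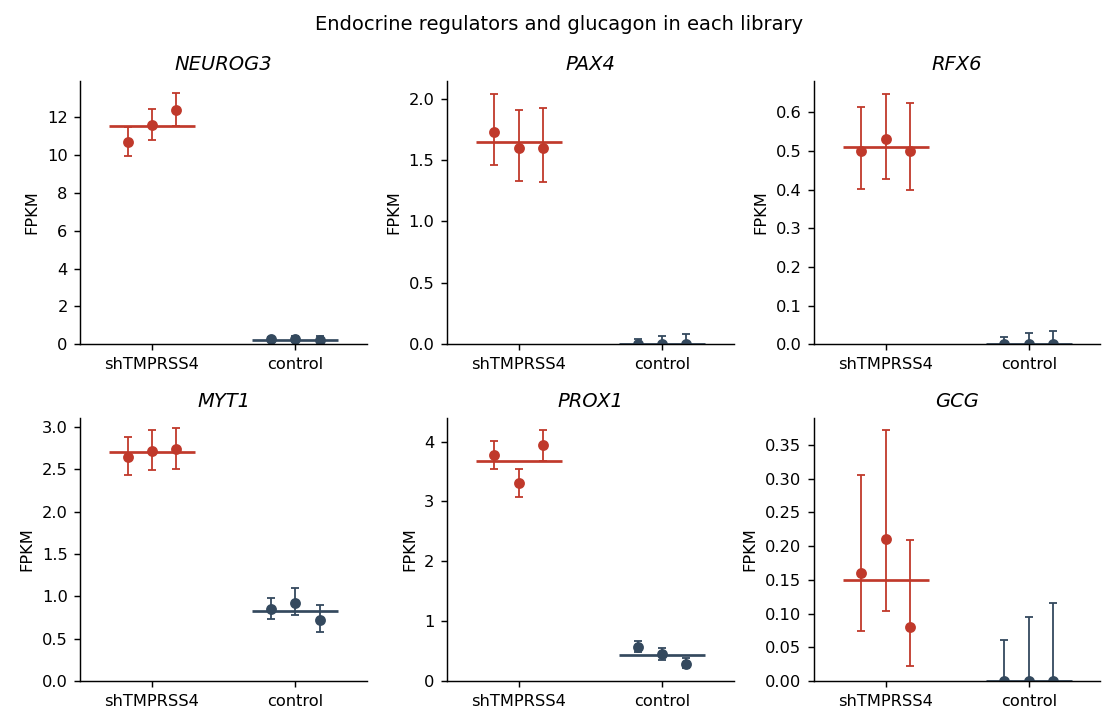
Level of each gene in FPKM (y axis, linear, a scale for each gene) in the 3 shTMPRSS4 libraries (red) and the 3 control libraries (dark blue). Points are single libraries in replicate order, bars the exact 95% Poisson interval of the count, and lines the group means; for GCG the intervals of all 3 shTMPRSS4 libraries, which start at 0.0735, 0.104 and 0.0222 FPKM, reach that of control replicate 3, which ends at 0.116 FPKM.

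NEUROG3 (ENSG00000122859, GRCh38 chromosome 10, 69571698 to 69573238, minus strand), the factor that commits progenitors to the endocrine lineage, had 10.71, 11.59 and 12.37 FPKM in shTMPRSS4 replicates 1, 2 and 3. In control replicates 1, 2 and 3 it had 0.25, 0.25 and 0.24 FPKM. The lowest shTMPRSS4 library thus stood far above the highest control library. These levels rest on 786, 804 and 796 counts in the shTMPRSS4 libraries and 20, 13 and 10 counts in the control libraries. The log2 fold change was 5.49 ± 0.07 (SE, n = 3 per group), a 44.9-fold higher level. The 43 control counts in all limit its precision more than the close FPKM values show, since the exact 95% Poisson interval of the control replicate 3 count runs from 4.80 to 18.4.

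PAX4 (ENSG00000106331, chromosome 7, 127610292 to 127618114, minus strand), a paired-box and homeodomain factor that in mouse favours the beta and delta cell fates over the alpha fate, had 1.73, 1.60 and 1.60 FPKM in the shTMPRSS4 libraries. The counts behind them were 142, 124 and 115, against 0 in each control library. RFX6 (ENSG00000185002, chromosome 6, 116877212 to 116932163, plus strand), a winged-helix factor needed in mouse for most islet cell types, had 0.50, 0.53 and 0.50 FPKM from 92, 92 and 81 counts, against 0 counts in each control library. Both genes were present in every shTMPRSS4 library and had no read in any control library. A floor of 3 counts over the control group limits the control level to 0.0157 FPKM for PAX4 and 0.00697 FPKM for RFX6. With the shTMPRSS4 counts taken as they are, PAX4 was at least 105-fold and RFX6 at least 73.1-fold above that floor. These bounds cover counting error of the control counts only and follow the depth of the control group. Without control replicate 1, the deepest library, they were 56.9-fold and 39.6-fold.

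MYT1 (ENSG00000196132, chromosome 20, 64102394 to 64242253, plus strand), a zinc finger factor that in mouse is expressed with Neurog3 in endocrine progenitors, had 2.65, 2.72 and 2.74 FPKM in the shTMPRSS4 libraries. Its control levels were 0.85, 0.92 and 0.72 FPKM. The log2 fold change was 1.70 ± 0.10 (SE, n = 3 per group), a 3.25-fold higher level. It was the smallest fold change of the 6 genes and the nearest to the table's limit, and with the scales set over the listed genes it was 0.53 (DESeq2) or 0.51 (TMM). MYT1 was also the most abundant of the 6 genes in every control library.

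PROX1 (ENSG00000117707, chromosome 1, 213983181 to 214041502, plus strand) had 3.77, 3.30 and 3.94 FPKM in the shTMPRSS4 libraries and 0.57, 0.45 and 0.29 FPKM in control replicates 1, 2 and 3. The groups did not overlap, and control replicate 3 was the lowest of all. The log2 fold change was 3.11 ± 0.30 (SE, n = 3 per group), an 8.65-fold higher level, and it lay between 2.85 and 3.33 when each library was left out in turn. PROX1-AS1, a transcript on the opposite strand, shares 171 exonic bases with the 8928 annotated exonic bases of PROX1 in GENCODE 29. The labels describe no step that marks the strand, so reads in those bases could belong to either gene.

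GCG (ENSG00000115263, chromosome 2, 162142873 to 162152404, minus strand) was the hormone gene of the set and its least abundant member. It had 9, 11 and 4 counts, or 0.16, 0.21 and 0.08 FPKM, in shTMPRSS4 replicates 1, 2 and 3, against 0 counts in each control library. Every shTMPRSS4 library held reads, and no control library did. With its 24 shTMPRSS4 counts taken as they are, GCG was at least 6.62-fold above the control floor. That floor was 3 counts over the control group, or 0.0229 FPKM. Without control replicate 1 this bound was 3.58-fold. The bound leaves out counting error of those 24 counts, so the true ratio may be lower. Per library, the floor of control replicate 3 was 0.0946 FPKM, above the 0.08 FPKM of shTMPRSS4 replicate 3, so a difference between these 2 libraries was not detectable at this depth. In the authors' deposited table GCG had an FDR of 0.0221, the closest of the 6 genes to the table's limit, against 1.54e-10 or less for the others.

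A group of 49 listed genes had 0 counts in every control library. PAX4 ranked 2nd, RFX6 5th and GCG 41st among them by summed shTMPRSS4 count, with 381, 265 and 24 counts against a median of 34.

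**Figure D2:**
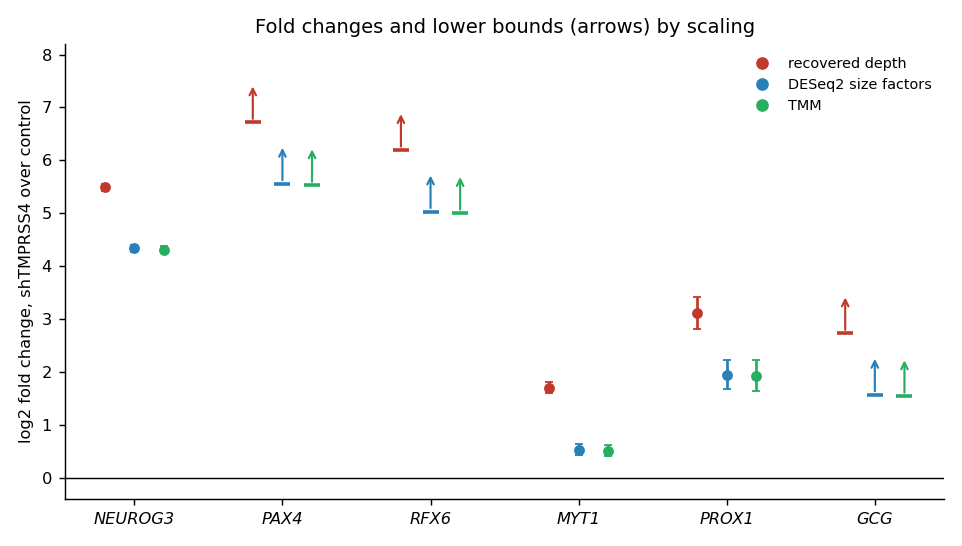
Log2 fold change of shTMPRSS4 over control (y axis) for NEUROG3, MYT1 and PROX1 (points, bars are the SE over 3 libraries per group) and the log2 lower bound for PAX4, RFX6 and GCG (ticks with arrows), at recovered depth (red) and with DESeq2 size factors (blue) or TMM (green) over the listed genes. All values stay above 0, and MYT1 comes nearest to 0 with 0.53 and 0.51.

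The order of the levels differed between the groups. This difference, like that of the ratios between groups below, restates the fold changes of genes chosen from this comparison. In each shTMPRSS4 library NEUROG3 was the highest in FPKM, followed by PROX1, MYT1, PAX4, RFX6 and GCG, and no 2 neighbours in this order overlapped over the 3 libraries. In each control library MYT1 was the highest, followed by PROX1 and NEUROG3. The 6 genes summed to between 19.5 and 21.2 FPKM in the shTMPRSS4 libraries, of which NEUROG3 gave 54.9% to 58.3%. In the control libraries they summed to between 1.25 and 1.67 FPKM, of which NEUROG3 gave 15.0% to 19.2%. The level ratio of NEUROG3 to MYT1 was 4.27 ± 0.24 in shTMPRSS4 libraries and 0.300 ± 0.03 in control libraries (SD, n = 3 each). The level ratio of PROX1 to MYT1 was 1.36 ± 0.13 in shTMPRSS4 libraries and 0.521 ± 0.14 in control libraries. Within shTMPRSS4 libraries the level ratio of PAX4 to RFX6 was 3.23 ± 0.22.

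Levels of different genes depend on the length that the authors divided by. The length implied by the deposited counts and FPKM was 1376 bases for NEUROG3, whose single GENCODE 29 transcript has 1376 bases. For RFX6 it was 3452 bases, close to the longest annotated transcript of 3460. For PAX4, MYT1, PROX1 and GCG the implied lengths of 1538, 3836, 4908 and 1050 bases lay between the shortest and the longest annotated transcripts, which run from 935 to 2206, 260 to 5614, 560 to 8498 and 582 to 1289 bases. At most 0.479% of the 31-base words of any of the 6 genes occur in transcripts of genes elsewhere in the genome, the highest share being that of MYT1.

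The genes differed in how far the replicates of a group spread, a quantity that also enters the authors' FDR and is given as a description. The spread is given as the variance of the counts over that of Poisson counting at the recovered depths, where 1 means counting error alone. In shTMPRSS4 libraries it was 0.28 for PAX4, 0.09 for RFX6, 0.17 for MYT1 and 1.36 for GCG, against a median of 2.68 over the 714 listed genes with at least 30 counts in that group, a minimum that GCG with 24 counts does not reach. NEUROG3 had 4.14 and PROX1 7.14 there. In control libraries it was 0.01 for NEUROG3, 1.54 for MYT1 and 8.43 for PROX1, against a median of 2.65 over 604 genes. PROX1 was the member with the largest spread in both groups, above the upper quartiles of 5.80 (shTMPRSS4) and 6.03 (control). Its exact 95% Poisson intervals of 0.488 to 0.669 FPKM in control replicate 1 and 0.210 to 0.390 FPKM in control replicate 3 did not overlap. With 3 libraries each ratio is imprecise, and the part of depth or of the code L3 in the low PROX1 value of control replicate 3 was not tested.

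**Figure D3:**
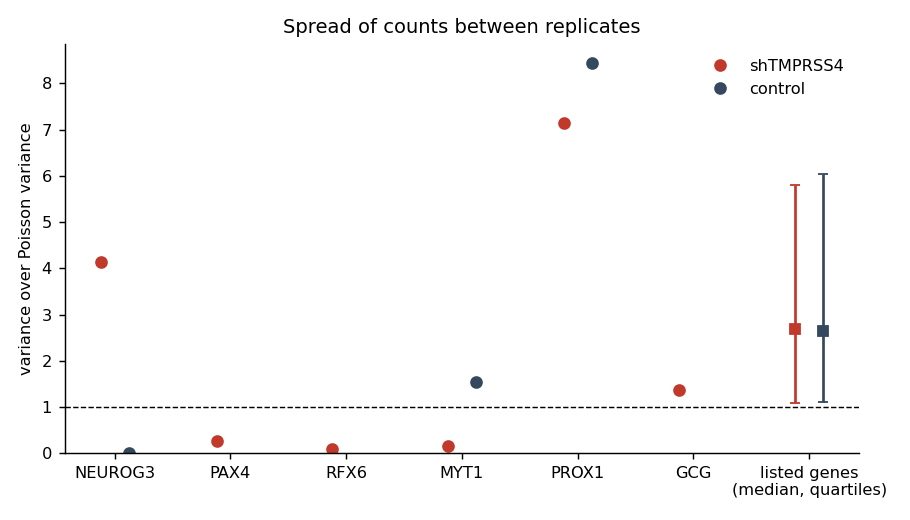
Variance of the counts of 3 replicates over the Poisson variance at recovered depth (y axis, dashed line at 1) for each gene in shTMPRSS4 (red) and control (dark blue) libraries; PAX4, RFX6 and GCG have no control value because all counts are 0. Squares and bars are the median and the quartiles over the listed genes, and PROX1 lies above both upper quartiles.

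Of 37 endocrine transcription factors 7 were listed, all higher, against 4.98% listed over all genes and 73.7% higher among the listed. They were the 5 regulators above, MAFA and SOX4. The 5 regulators were chosen from the deposited table, which leaves 2 others, so nothing is read from the count. In the authors' deposited table the median log2 fold change of the 7 was 3.07, the value of PROX1, against 1.33 for all 753 listed genes. Nothing is read from that difference, since 5 of the 7 are the genes chosen here, and the values of the others were 2.12 for MAFA and 1.56 for SOX4. MAFA, which activates the insulin gene in mature beta cells, had 0.36, 0.58 and 0.54 FPKM in shTMPRSS4 libraries and 0.14, 0.13 and 0.07 FPKM in control libraries. SOX4, a factor of endocrine progenitors in mouse that is also widely expressed in epithelial tumours, had 82.5, 74.5 and 75.3 FPKM in shTMPRSS4 libraries and 28.4, 24.8 and 25.8 FPKM in control libraries. The groups did not overlap for either gene. With scales set over the listed genes the log2 fold change of SOX4, 1.56 at recovered depth, was 0.38 (DESeq2) or 0.37 (TMM). The other 30 factors, among them NEUROD1, INSM1, NKX2-2, PAX6 and PDX1, were not analysed here.

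Over all genes the authors adjusted over, 4.98% were listed. Of 18 islet and gut hormone genes GCG was the 1 listed, and of 32 hormone granule and secretion genes 2 were listed, both higher at recovered depth, shares near that background. SCGN, a calcium-binding protein of islet and neuroendocrine cells, had 1.08, 0.54 and 0.78 FPKM in shTMPRSS4 libraries and 0.15, 0.23 and 0.11 FPKM in control libraries. PTPRN2, a membrane protein of secretory granules, had 0.87, 1.09 and 1.0 FPKM in shTMPRSS4 libraries and 0.50, 0.46 and 0.41 FPKM in control libraries, and its log2 fold change of 1.11 ± 0.13 (SE) turned to -0.06 (DESeq2) or -0.08 (TMM) with scales set over the listed genes. Insulin, somatostatin and the chromogranins were not analysed here.

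Of 16 genes known downstream of Neurog3 in mouse or frog 6 were listed and all were higher, against 4.98% listed over all genes and 73.7% higher among the listed. Besides PAX4, RFX6 and MYT1 they were DLL1, HES6 and BTG2. PAX4, RFX6 and MYT1 were chosen from the deposited table, so nothing is read from the count. DLL1, the Notch ligand that endocrine progenitors present to their neighbours, had 12.91, 11.83 and 13.57 FPKM in shTMPRSS4 libraries and 0.18, 0.07 and 0.04 FPKM in control libraries, on 26 control counts in all. HES6, which opposes HES1, averaged 197 ± 12.7 FPKM in shTMPRSS4 libraries and 62.5 ± 4.81 FPKM in control libraries (SD, n = 3 each). Its log2 fold change of 1.66 was 0.49 (DESeq2) or 0.47 (TMM) with scales set over the listed genes. BTG2, an antiproliferative gene, had log2 fold change 2.45 ± 0.09 (SE). In the authors' deposited table the median log2 fold change of the 6 was 4.75, against 1.33 for all listed genes. Nothing is read from it, since 3 of the 6 were chosen here and PAX4 and RFX6 rest on the 0.001 put in place of a control mean of 0. The values of the others were 7.05 for DLL1, 2.45 for BTG2 and 1.66 for HES6.

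The Notch pathway list of 24 genes had 6 listed members, all higher at recovered depth, against the same background of 4.98% and 73.7%. Their median log2 value in the authors' deposited table was 2.21, against 1.33 for all listed genes. The list was chosen with earlier results of these data known, so nothing is read from the count or the median. Ligands were DLL1, DLL3 and DLL4. DLL3, which inhibits Notch within the cell that makes it, had 1.96, 1.99 and 2.30 FPKM in shTMPRSS4 libraries and 0.20, 0.29 and 0.43 FPKM in control libraries. DLL4 averaged 3.83 ± 0.29 FPKM in shTMPRSS4 libraries and 1.29 ± 0.07 FPKM in control libraries. Its log2 fold change of 1.56 was 0.39 (DESeq2) or 0.37 (TMM) with scales set over the listed genes. NEURL1, a ubiquitin ligase that acts on Notch ligands in the fly, had 37.8, 37.7 and 37.9 FPKM in shTMPRSS4 libraries and 0.99, 1.15 and 0.44 FPKM in control libraries. Of the target genes, HES4 had 23.5, 16.8 and 29.7 FPKM in shTMPRSS4 libraries and 13.3, 11.5 and 9.52 FPKM in control libraries, and its log2 fold change of 1.01 ± 0.28 (SE) turned to -0.17 (DESeq2) or -0.18 (TMM) with scales set over the listed genes. HES1, which represses NEUROG3, was not analysed here.

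**Figure D4:**
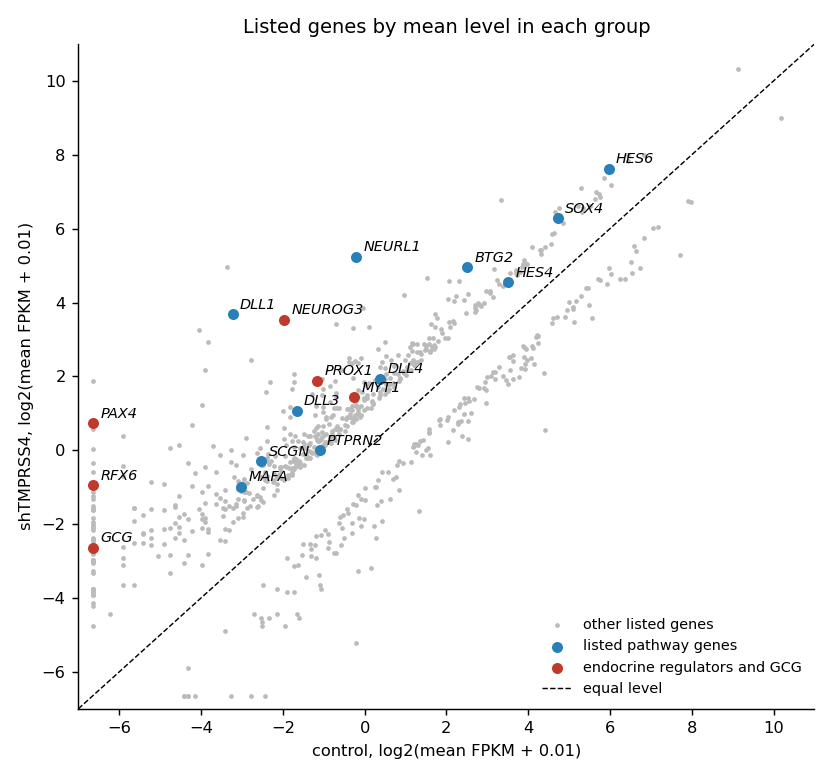
Mean level of each of the 753 listed genes in shTMPRSS4 libraries (y axis) against control libraries (x axis), both as log2(mean FPKM + 0.01), with the dashed line at equal levels. Red points are the 5 regulators and GCG, blue points the listed pathway genes, all above the line; PAX4, RFX6 and GCG sit at the left edge, where the control mean is 0.

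Of the lists for other cell types, that of goblet and secretory progenitor markers had the most listed genes. Against the same background, 8 of 14 goblet and secretory progenitor markers were listed, all higher. This list was chosen with earlier results of these data known, so nothing is read from the count. The summed level of the 8 was 303 to 310 FPKM in shTMPRSS4 libraries and 66.1 to 69.7 FPKM in control libraries. ATOH1, the helix-loop-helix factor that starts the secretory lineage in the gut, averaged 9.99 ± 0.23 FPKM in shTMPRSS4 libraries and 0.813 ± 0.16 FPKM in control libraries. TFF3, a trefoil peptide of goblet cells, averaged 110 ± 1.02 FPKM in shTMPRSS4 libraries and 10.0 ± 1.95 FPKM in control libraries. FCGBP, a mucus protein, averaged 17.2 ± 0.38 FPKM in shTMPRSS4 libraries and 4.12 ± 0.39 FPKM in control libraries. CREB3L1, a transcription factor and the largest term of the sum, averaged 121.6 ± 2.56 FPKM in shTMPRSS4 libraries and 53.0 ± 2.88 FPKM in control libraries. Its log2 fold change of 1.2 ± 0.05 (SE) was 0.03 (DESeq2) or 0.01 (TMM) with scales set over the listed genes. These 4 had the lowest FDR of the list. ZG16 of that list had 0 counts in all control libraries.

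The acinar, tuft and neuron lists had 1 or 2 listed genes each, against 4.98% listed over all genes. Nothing is read from these counts. The listed gene of 15 acinar markers was the elastase CELA3A, with 3.59 ± 0.65 FPKM in shTMPRSS4 libraries and 0.293 ± 0.04 FPKM in control libraries. The listed gene of 8 tuft cell markers was ALOX5, with 28.0 ± 0.31 FPKM in shTMPRSS4 libraries and 11.7 ± 0.22 FPKM in control libraries. Its log2 fold change of 1.25 ± 0.02 (SE) was 0.08 (DESeq2) or 0.06 (TMM) with scales set over the listed genes. The 2 listed genes among 10 neuron markers, TUBB3 and MAP2, were higher at recovered depth with log2 fold changes of 1.14 ± 0.04 and 1.09 ± 0.38 (SE), and both turned to values between -0.04 and -0.09 with DESeq2 or TMM scales over the listed genes. The part of these cell types in the levels of the endocrine genes was not tested.

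The authors' annotation puts NEUROG3, PAX4 and RFX6 under maturity onset diabetes of the young, an inherited diabetes. That term held 4 listed genes, all higher, the other being MAFA. The process term endocrine pancreas development also held 4 listed genes, all higher, namely the same 3 and SOX4. The term pancreas development held 4 listed genes, PAX4 and PROX1 among them, of which 3 were higher and 1 lower. All 5 regulators carried the term DNA binding, as did 65 listed genes, of which 54 were higher and 11 lower. Of all 753 listed genes 73.7% were higher, and genes chosen here are in each of these counts. The terms were looked up with the values known, no test is given and nothing is read from the counts.

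The genes with the most similar profile over the 6 libraries were found by the distance between centred log2 scaled counts, where 0 is an identical profile. For MYT1 they were COL4A2 (distance 0.17), a basement membrane collagen, and SPINK1 (0.24), a trypsin inhibitor. For PROX1 they were HABP2 (0.21), a serine protease of plasma, which had 2.26 ± 0.11 FPKM in shTMPRSS4 libraries and 0.273 ± 0.08 FPKM in control libraries, and VCAN (0.42). For PAX4 and RFX6 they were GPR142 and PGA5, both with 0 counts in all control libraries. GPR142, a receptor found on islet cells, had 316 counts and PGA5, a pepsinogen, 287 counts over the shTMPRSS4 libraries, and PGA5 has near-identical neighbours, so its counts depend on how shared reads were assigned. For GCG they were AFAP1L1 (0.42) and GLOD5 (0.70), with 31 and 33 shTMPRSS4 counts and 0 control counts. PAX4, RFX6, GCG and these neighbours all had 0 control counts, so their control values are set by the constant of 0.5 added before the log. Their likeness thus reflects shTMPRSS4 counts of similar size and is not evidence of shared regulation. For NEUROG3 the rule gave CPN1 (0.30) and RNF186 (0.46), which had 0 control counts, so their likeness rests on the constant of 0.5 added before the log. Among the 639 genes with counts in every library, a choice made after seeing the data, the nearest to NEUROG3 were TNFRSF19 (0.83), with 1.1 ± 0.12 FPKM in shTMPRSS4 libraries and 0.0333 ± 0.01 FPKM in control libraries, and NEURL1 (1.01). All these genes share the split between the groups that put them in the table.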

How the data were processed

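RNA of 6 AsPC-1 samples, enriched with oligo(dT) beads, was sequenced, per the labels' protocols. Bowtie 0.12.2, with mm8 and mm9 as builds, is listed in the submitters' processing notes. These are mouse builds and the identifiers are human, so the alignment reference is uncertain. For the counting tool and the authors' test, no source used here gives a name. The deposited table holds whole-number counts per gene, FPKM rounded by the authors to 2 decimals, and the authors' mean FPKM, log2 fold change, p-value and FDR. A group mean of 0 was replaced by 0.001 in the deposited means, on which the deposited log2 fold change depends. All rows passed the authors' threshold. The FDR over the p-value at the lowest deposited p-value gives 15117 genes adjusted over.

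Relative depth was the median ratio of count to FPKM over 159 genes with at least 200 counts in each library. Absolute depth came from 22 genes with 1 transcript in GENCODE 29, which supplied coordinates for all 753 identifiers. Fold changes are differences of mean log2(scaled count + 0.5), with the SE from the spread over 3 libraries per group. Intervals are exact 95% Poisson intervals, and floors are 3 counts. Both cover counting error only, and the fold bounds leave out that of the shTMPRSS4 counts. No p-value was computed, since the genes were chosen from this contrast. edgeR 4.0.16 and DESeq2 1.42.0 (R 4.3.3) served as alternative estimates of fold change over all listed genes, tested on simulated data first. Scaling over the listed genes was an alternative, because it centres a table of selected genes.

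The genes and the 10 lists were chosen with earlier results of these data known. Named genes were the 6 genes, all listed genes of the endocrine, hormone, granule, Notch and Neurog3 lists, up to 4 per list of other cell types by lowest FDR, and the 2 nearest profiles per gene among listed genes with at least 30 counts. Names past this rule (ZG16 and those under shared terms) were chosen after their values were seen.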

Additional observations from a re-analysis of the deposited data

How the results depend on the processing

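With scales set over the listed genes, log2 values of the 6 genes fell but kept their sign, while PTPRN2, HES4, TUBB3 and MAP2 changed sign. With DESeq2 size factors and with TMM they were 4.33 and 4.31 for NEUROG3, 0.53 and 0.51 for MYT1, and 1.94 and 1.92 for PROX1. The log2 lower bounds were 5.56 and 5.53 for PAX4, 5.03 and 5.0 for RFX6, and 1.57 and 1.54 for GCG. The log2 of FPKM + 0.1 gave 5.07 for NEUROG3. Leaving out each library in turn gave 5.44 to 5.54 for NEUROG3, 1.60 to 1.78 for MYT1 and 2.85 to 3.33 for PROX1, and log2 bounds of 5.83 to 6.74 for PAX4, 5.31 to 6.21 for RFX6 and 1.84 to 3.0 for GCG. The bounds move with control depth by construction. The labels share replicate numbers, but same-numbered libraries did not deviate together (correlations -0.02, -0.03 and -0.02 over 733 genes). With 3 libraries per group these values cannot tell whether same-numbered libraries share a culture or a preparation. With the replicate block edgeR gave 5.50, 1.70 and 3.07 for NEUROG3, MYT1 and PROX1, and without it 5.52, 1.69 and 3.04. Of the list counts, the hormone list went to 0 at an FDR under 0.001, at a mean of at least 0.5 FPKM or at 30 counts, since GCG is its single listed gene, and the neuron list to 1 at an FDR under 0.001. The lists rest on the authors' calls over all 6 libraries, so they were not recomputed without a library. The nearest profile to NEUROG3 was at a distance of 0.83 where counts in every library were required, against 0.30 without that. In all, 73 of 97 alternative values for the 6 genes, lists and motifs stayed within the replicate spread or 1.5 times the count. Depth limits GCG most, with 24 reads in all.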

Other observations

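The authors' term for regulation of insulin secretion held 6 listed genes, RFX6 and GCG among them, and was read after the values were seen. Of the other 4, 3 were higher in the shTMPRSS4 libraries, against 73.7% of all listed genes, so nothing is read from this count. ITPR2, an inositol trisphosphate receptor that releases calcium, had 3.71, 3.59 and 3.25 FPKM in shTMPRSS4 libraries and 1.18, 1.04 and 0.98 FPKM in control libraries. CACNA2D2, an auxiliary subunit of voltage-gated calcium channels, averaged 0.750 ± 0.09 FPKM in shTMPRSS4 libraries and 0.163 ± 0.03 FPKM in control libraries (SD, n = 3 each). RAPGEF4, a cyclic AMP sensor that promotes hormone release in beta cells, had 0.59, 0.78 and 0.50 FPKM in shTMPRSS4 libraries and 0.16, 0.16 and 0.35 FPKM in control libraries. These 3 directions held under DESeq2 and TMM scales over the listed genes, with smaller log2 fold changes. They were 0.55 and 0.53 for ITPR2, 1.03 and 1.01 for CACNA2D2, and 0.38 and 0.36 for RAPGEF4. The RAPGEF4 values are below its SE of 0.41 at recovered depth, so its direction is not resolved there.

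ADRA2A went the other way. This adrenergic receptor, which restrains insulin release, had 0.22, 0.29 and 0.25 FPKM in shTMPRSS4 libraries and 1.36, 1.33 and 1.33 FPKM in control libraries. Its log2 fold change was -2.41 ± 0.13 (SE, n = 3 per group), on 142 shTMPRSS4 and 628 control counts, and the libraries of the groups did not overlap. No test is given for these genes, since the table was selected on this comparison.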
